A study of Mus musculus with 10 samples.

Results

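Sialyltransferases are Golgi enzymes that attach sialic acid to the ends of sugar chains on proteins and lipids. Each enzyme is specific for a linkage and for an acceptor chain, so the set that a cell expresses shapes the sialic acids on its surface. Siglecs, selectins and other lectins read these caps on blood cells, and the B cell Siglec CD22 binds the cap that St6gal1 makes on N-linked glycans. The 10 genes described here are St6gal1, St3gal1, St3gal2, St3gal3, St3gal4, St3gal5, St3gal6, St8sia4, St6galnac4 and St8sia1. They are 10 of the 20 sialyltransferase genes on the array and 10 of 23152 genes measured in all. The list was picked from the family by symbol, with the levels of St6gal1 and other genes on these same 10 arrays already known, so the levels and differences of these genes are given as a description, with no p-value.

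The cells were sorted from bone marrow of adult C57BL/6 mice, and total RNA was profiled on Affymetrix arrays. All 4 groups were lineage-negative and Flt3 high. Ly6D+ CLPs (n = 2 arrays) and Ly6D- CLPs (n = 2) are common lymphoid progenitors, sorted as low for cKit and Sca-1 and positive for CD127, the interleukin 7 receptor alpha chain. CD127+ LMPPs (n = 3, labelled LMPP+s) and CD127- LMPPs (n = 3, labelled LMPP-s) are lymphoid-primed multipotent progenitors, high for cKit and Sca-1. The study divided LMPPs by CD127 and set both parts against CLPs. The LMPP arrays and the CLP arrays were entered in the deposit as separate blocks of samples. If the blocks were handled apart, that cannot be told apart from any difference between CLPs and LMPPs. The labels do not say whether arrays of a group came from separate mice or sorts, so errors measure the spread between these arrays, which may be technical.

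Gene values are the mean log2 signal of the probe sets that carry that one symbol. Between arrays of the same group, gene values had Pearson correlations of 0.9725 to 0.9855, and genes are not independent replicates. Il7r, which encodes CD127, followed its gate and averaged 9.64 ± 0.026 in Ly6D+ CLPs, 9.31 ± 0.046 in Ly6D- CLPs (SD, n = 2 each), 9.10 ± 0.050 in CD127+ LMPPs and 4.32 ± 0.44 in CD127- LMPPs (SD, n = 3 each). Ly6d followed the split of the CLPs, with 11.3 in Ly6D+ and 5.88 in Ly6D- CLPs, and averaged 8.67 in CD127+ and 4.76 in CD127- LMPPs, which were not gated on it. Ly6a, which encodes Sca-1, averaged 6.30 ± 0.66 and 5.51 ± 0.66 in Ly6D+ and Ly6D- CLPs (SD, n = 2 each), and 7.02 ± 0.59 and 5.82 ± 0.18 in CD127+ and CD127- LMPPs (SD, n = 3 each). CD127- LMPPs thus lay between the CLP groups in Ly6a, although they were gated as high for Sca-1. Their arrays overlapped those of both CLP groups in Ly6a. Kit, which encodes cKit, followed its gate, with 7.05 ± 0.083 and 7.62 ± 0.16 in Ly6D+ and Ly6D- CLPs (SD, n = 2 each). It averaged 8.33 ± 0.067 and 8.70 ± 0.040 in CD127+ and CD127- LMPPs (SD, n = 3 each). Flt3 averaged 10.1 and 10.2 in Ly6D+ and Ly6D- CLPs, and 10.2 and 9.82 in CD127+ and CD127- LMPPs. Sensory receptor genes (1426 genes), which serve as a guide to low signal, had a median of 2.52 and a 95th percentile of 4.45. If the dimmer of the groups averaged less than 4.45, its mean was set to 4.45 and the fold is a lower bound, written as at least that value. Of the 10 members, 7 lay above 4.45 in every group. The exceptions were St6gal1 and St3gal6 in CD127- LMPPs, and St8sia1, which lay below it in all 4 groups.

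St6gal1, which caps galactose on N-linked glycans, had the widest range of the 10 genes. Its values were 7.53 and 7.57 in Ly6D+ CLPs, 6.63 and 6.33 in Ly6D- CLPs, 6.25, 6.08 and 6.06 in CD127+ LMPPs, and 3.55, 4.07 and 3.96 in CD127- LMPPs. No array of one group overlapped those of the next group in this order. The share of all genes with such steps was not counted. With so few arrays a group, a lack of overlap can arise by chance, here and below. The group means were 7.55 ± 0.027 and 6.48 ± 0.22 in Ly6D+ and Ly6D- CLPs (SD, n = 2 each), and 6.13 ± 0.11 and 3.86 ± 0.28 in CD127+ and CD127- LMPPs (SD, n = 3 each). CD127- LMPPs were therefore the one group with the mean over St6gal1 probe sets in the range of low signal. Single probe sets of St6gal1 averaged from 1.43 (17324431) to 5.86 (17324427) in that group, so some lay above the limit of 4.45.

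In log2 units, St6gal1 was 2.27 higher in CD127+ than in CD127- LMPPs (SE 0.16), which is at least 3.21-fold. It was 0.88 higher in CLPs, taken as the equal mean of their 2 groups, than in CD127+ LMPPs (SE 0.15, 1.84-fold), and 1.06 higher with the brightest probe set, where the call was lost. Against CD127- LMPPs the CLPs were 3.15 higher (SE 0.15, at least 5.93-fold). Ly6D+ CLPs were 1.07 higher than Ly6D- CLPs (SE 0.20, 2.10-fold). Without Ly6D- CLP array 1 this last difference was 1.23, and without Ly6D- CLP array 2 it was 0.92. These comparisons share groups, so the differences are not independent of each other. In sorted bulk RNA, fewer cells expressing the gene and less RNA per cell cannot be told apart.

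**Figure D1:**
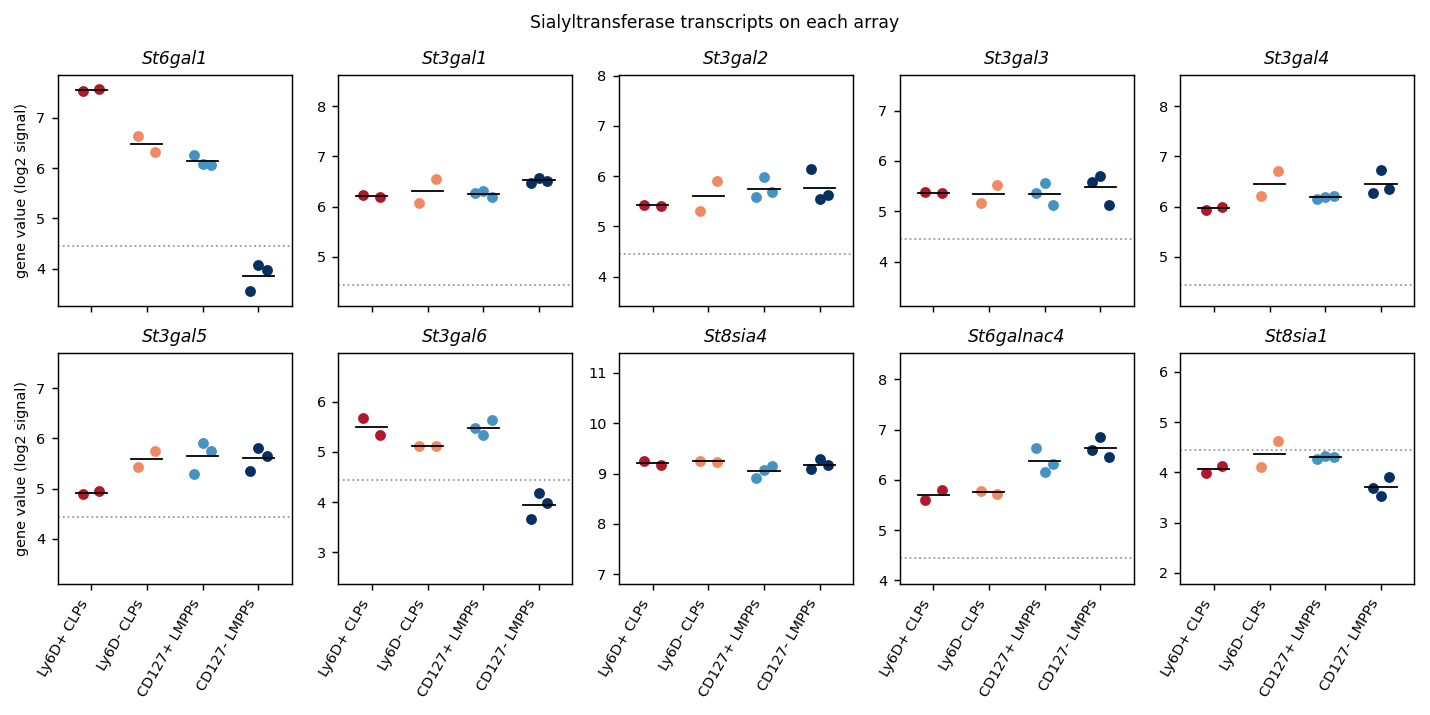
Gene values (log2 signal, y axis, each panel spanning the same number of log2 units) of the 10 sialyltransferases on each array, by group (x axis); bars are group means and the dotted line is the low-signal limit of 4.45. St6gal1 is highest in Ly6D+ CLPs (7.53 and 7.57) and lowest in CD127- LMPPs (3.55 to 4.07), and St3gal6 is low in CD127- LMPPs alone of the 4 groups.

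St3gal6 encodes an enzyme that caps galactose in another linkage and takes part in making selectin ligands. It had values of 5.67 and 5.33 in Ly6D+ CLPs, 5.12 and 5.12 in Ly6D- CLPs, 5.48, 5.33 and 5.63 in CD127+ LMPPs, and 3.66, 4.18 and 3.99 in CD127- LMPPs. CD127- LMPPs lay below every other array, as with St6gal1, while CD127+ LMPPs overlapped Ly6D+ CLPs and lay just above Ly6D- CLPs. St3gal6 was 1.54 higher in CD127+ than in CD127- LMPPs (SE 0.17, at least 2.05-fold) and 1.37 higher in CLPs than in CD127- LMPPs (SE 0.15, at least 1.82-fold). Between CLPs and CD127+ LMPPs the difference was -0.17 (SE 0.15), or 0.14 with the brightest probe set, and between Ly6D+ and Ly6D- CLPs it was 0.38 (SE 0.20), which was 0.21 without Ly6D+ CLP array 1 and 0.55 without Ly6D+ CLP array 2.

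In the table of RefSeq promoter windows used here (GRCm38.p6), 8 of the 10 genes were matched, with 11 windows of 250 bases before to 50 bases after a start. The windows of St6gal1 and St3gal6 are shown because these genes shared the low level in CD127- LMPPs. Each is written 5′ to 3′ on the strand of the gene. Capitals mark matches on either strand to CAGGTG (an E-box bound by E proteins), GGAAGT (a core of ETS factors such as PU.1), TGTGGT (a RUNX core) or GGGCGG (a GC box).
St6gal1, chr16:23224490-23224789, plus strand: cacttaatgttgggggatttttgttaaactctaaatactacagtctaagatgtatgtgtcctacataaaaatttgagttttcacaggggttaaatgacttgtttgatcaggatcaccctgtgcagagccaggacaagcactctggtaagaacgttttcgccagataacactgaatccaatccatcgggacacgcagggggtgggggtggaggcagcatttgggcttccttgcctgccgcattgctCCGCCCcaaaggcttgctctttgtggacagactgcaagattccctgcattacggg
St6gal1, chr16:23225771-23226070, plus strand: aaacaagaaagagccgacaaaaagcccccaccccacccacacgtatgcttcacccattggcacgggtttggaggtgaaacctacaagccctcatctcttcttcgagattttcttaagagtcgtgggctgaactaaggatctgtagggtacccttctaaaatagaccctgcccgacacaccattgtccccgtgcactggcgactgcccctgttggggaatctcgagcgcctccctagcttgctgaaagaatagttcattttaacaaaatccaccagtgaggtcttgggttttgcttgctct
St6gal1, chr16:23290220-23290519, plus strand: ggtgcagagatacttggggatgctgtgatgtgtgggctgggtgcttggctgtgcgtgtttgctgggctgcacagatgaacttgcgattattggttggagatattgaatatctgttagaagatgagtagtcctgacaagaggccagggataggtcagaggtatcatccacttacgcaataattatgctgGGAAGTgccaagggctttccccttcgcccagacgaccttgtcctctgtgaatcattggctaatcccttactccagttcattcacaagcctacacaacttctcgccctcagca
St3gal6, chr16:58523377-58523676, minus strand: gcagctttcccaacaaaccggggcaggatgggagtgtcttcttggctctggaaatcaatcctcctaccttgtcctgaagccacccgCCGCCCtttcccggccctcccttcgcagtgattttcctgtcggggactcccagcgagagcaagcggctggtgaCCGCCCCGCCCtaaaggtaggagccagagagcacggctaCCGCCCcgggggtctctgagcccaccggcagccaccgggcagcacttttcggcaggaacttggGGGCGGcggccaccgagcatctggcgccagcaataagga
St3gal6, chr16:58524204-58524503, minus strand: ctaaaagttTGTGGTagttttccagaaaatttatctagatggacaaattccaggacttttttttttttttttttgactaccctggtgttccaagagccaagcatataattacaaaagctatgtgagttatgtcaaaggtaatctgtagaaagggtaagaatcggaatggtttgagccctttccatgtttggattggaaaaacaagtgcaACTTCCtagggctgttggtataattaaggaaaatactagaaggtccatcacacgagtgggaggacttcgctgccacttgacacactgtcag
Of the 11 windows of member genes, 8 held a GC box, 3 the ETS core, 2 the RUNX core and 0 the E-box. Over all 32851 RefSeq windows of this length the shares were 35.7%, 23.8%, 16.8% and 20.2%. The ETS core lay at bases 189 to 194 of the third St6gal1 window and, on the other strand, at bases 210 to 215 of the second St3gal6 window. The GC boxes of the first St3gal6 window overlap in 1 place. These matches describe letters in the windows and do not show which start the cells used or which factor bound.

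The single probe sets show how evenly the difference ran across each gene. St6gal1 rests on 14 probe sets. In CD127+ against CD127- LMPPs all 14 had a higher mean in CD127+ LMPPs, by 0.29 to 4.75 with a median of 2.13, and in 12 of them every CD127+ array lay above every CD127- array. The difference was less even in CLPs against CD127+ LMPPs, where 12 of 14 had a higher and 2 a lower mean in CLPs. There 5 were higher with no overlap and 9 overlapped, with differences from -1.59 to 2.13 and a median of 0.96. In Ly6D+ against Ly6D- CLPs 13 of 14 had a higher mean in Ly6D+ CLPs, 11 of them with no overlap. The exception was probe set 17324421, with means of 4.20 in Ly6D+ CLPs and 5.53 in Ly6D- CLPs, and 5.05 in CD127+ and 3.22 in CD127- LMPPs. Probe set 17324425 differed in another way, with means of 4.998 and 4.07 in Ly6D+ and Ly6D- CLPs against 6.12 and 5.83 in CD127+ and CD127- LMPPs. Apart from that probe set, the remaining 13 were higher in every CLP array than in every CD127- LMPP array. Both probe sets were singled out after their values were seen, and their positions in the transcript are not given in the tables used.

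St3gal6 rests on 20 probe sets, of which 17 had a higher mean in CD127+ than in CD127- LMPPs and 13 had no overlap. The differences ran from -0.80 to 3.52, with a median of 1.58. In CD127- LMPPs the St3gal6 probe sets averaged from 1.31 (17331193) to 6.17 (17331185), so some lay above the low-signal limit there. In CLPs against CD127+ LMPPs all 20 overlapped. Against CD127- LMPPs, 9 of the 20 were higher in CLPs without overlap, and the median over all 20 was 1.62.

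**Figure D2:**
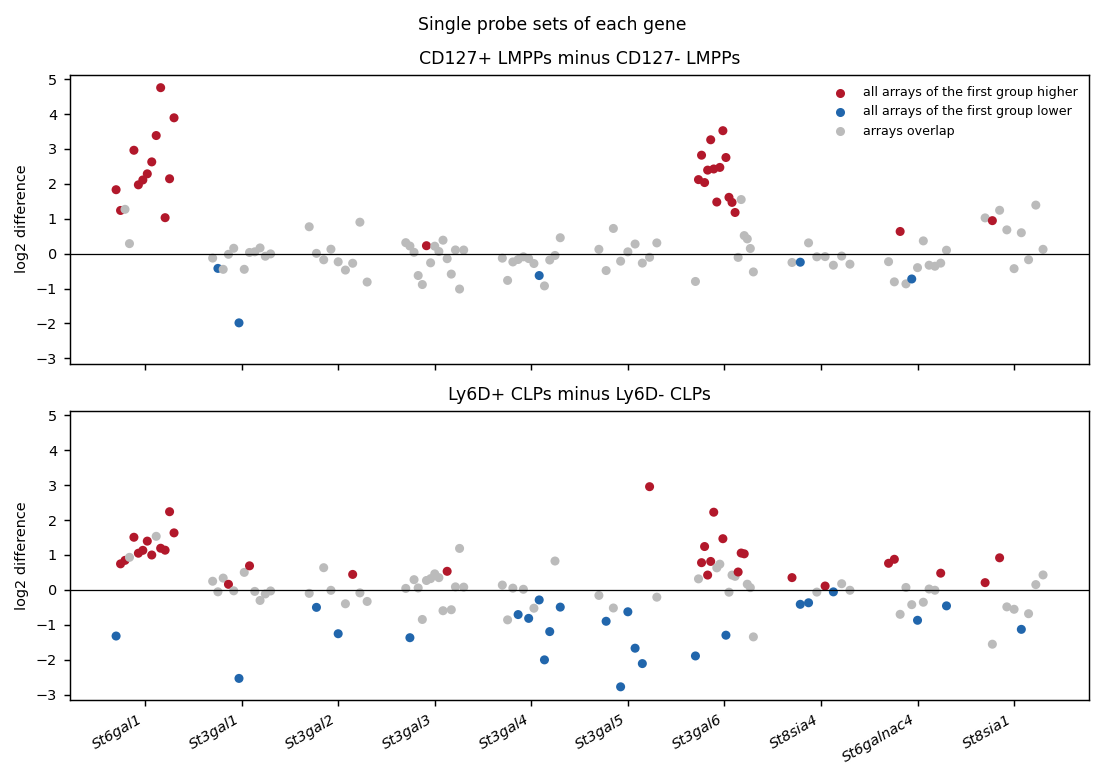
Log2 differences (y axis) of every probe set of each member (x axis), in CD127+ minus CD127- LMPPs and in Ly6D+ minus Ly6D- CLPs; red and blue points have no overlap between the arrays of the groups and grey points overlap. The St6gal1 points run from 0.29 to 4.75 in the upper panel and all but 1 lie above 0 in the lower panel, while the points of St3gal5 spread from -2.78 to 2.96 between the CLP groups.

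St6galnac4 ran the other way. Its enzyme adds a further sialic acid to short O-linked chains that already carry one. It had values of 5.60 and 5.79 in Ly6D+ CLPs, 5.78 and 5.72 in Ly6D- CLPs, 6.64, 6.16 and 6.31 in CD127+ LMPPs, and 6.60, 6.85 and 6.46 in CD127- LMPPs. All 4 CLP arrays lay below all 6 LMPP arrays, while arrays overlapped within the CLPs and within the LMPPs. The log2 difference was -0.91 between CLPs and CD127- LMPPs (SE 0.15, 1.88-fold lower) and -0.65 between CLPs and CD127+ LMPPs (SE 0.15, 1.57-fold lower). Between the LMPP groups it was -0.26 (SE 0.16). Of its 11 probe sets, 10 had a lower mean in CLPs than in CD127+ LMPPs, 4 of them with no overlap.

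The other enzymes of the galactose-capping ST3 group differed less between the LMPP groups than St6gal1 and St3gal6 did. St3gal1, which caps O-linked chains, had values of 6.23 and 6.19 in Ly6D+ CLPs, 6.08 and 6.54 in Ly6D- CLPs, 6.26, 6.31 and 6.20 in CD127+ LMPPs, and 6.48, 6.58 and 6.51 in CD127- LMPPs. CD127+ LMPPs lay below CD127- LMPPs without overlap, by a log2 difference of -0.26 (SE 0.14). St3gal4, which like St3gal6 takes part in making selectin ligands, had the same difference between the LMPP groups (-0.26, SE 0.17), also without overlap. Its Ly6D+ CLP arrays, at 5.93 and 6.00, were the lowest of all arrays. In Ly6D+ against Ly6D- CLPs St3gal4 differed by -0.49 (SE 0.20), which was -0.73 without Ly6D- CLP array 1 and -0.24 without Ly6D- CLP array 2. With the brightest probe set of St3gal4 it was 0.14, so its direction depends on the probe set.

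St3gal5, the synthase of the ganglioside GM3, had values of 4.89 and 4.95 in Ly6D+ CLPs, 5.43 and 5.75 in Ly6D- CLPs, 5.30, 5.91 and 5.74 in CD127+ LMPPs, and 5.36, 5.81 and 5.64 in CD127- LMPPs. The Ly6D+ CLP arrays were the lowest of the 10, and the other 3 groups overlapped. Ly6D+ CLPs differed from Ly6D- CLPs by -0.67 (SE 0.23). Its 9 probe sets did not move as one between these groups: 5 were lower without overlap, 1 was higher without overlap, and the differences ran from -2.78 to 2.96.

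St3gal2 and St3gal3, which act on O-linked and lipid chains and on N-linked chains, had overlapping arrays in each of the 4 comparisons for the mean over probe sets. These differences ran from -0.26 to -0.02 for St3gal2 and from -0.12 to 0.02 for St3gal3, with SE from 0.17 to 0.25. These errors do not show that the groups are alike. Between CLPs and CD127+ LMPPs the brightest probe set differed by -1.18 for St3gal2 (17505680) and by -0.73 for St3gal3 (17429009), in both cases with every CLP array below every CD127+ LMPP array. Against CD127- LMPPs these probe sets differed by -1.05 without overlap for St3gal2 and by -0.41 with overlap for St3gal3.

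The members of the ST8 group add sialic acid to sialic acid. St8sia4, which builds polysialic acid, spanned 0.37 over the 10 arrays as the mean of its probe sets. Its values were 9.24 and 9.17 in Ly6D+ CLPs, 9.24 and 9.23 in Ly6D- CLPs, 8.91, 9.07 and 9.15 in CD127+ LMPPs, and 9.09, 9.28 and 9.17 in CD127- LMPPs. The CLP arrays lay above the CD127+ LMPP arrays without overlap, by 0.18 (SE 0.12). The 8 probe sets of St8sia4 did not move as one. Against CD127+ LMPPs 3 were higher in CLPs without overlap, with differences from -0.47 to 0.74 over all 8. Against CD127- LMPPs 3 were higher and 2 were lower without overlap, with differences from -0.72 to 0.59. St8sia1, the synthase of the ganglioside GD3, had means of 4.06 ± 0.10 and 4.36 ± 0.37 in Ly6D+ and Ly6D- CLPs (SD, n = 2 each), and 4.30 ± 0.035 and 3.70 ± 0.19 in CD127+ and CD127- LMPPs (SD, n = 3 each). The CD127- LMPP arrays were the lowest, but all means lay under the low-signal limit, so no fold is given. The brightest St8sia1 probe set (17472589) averaged 6.85 and 6.64 in Ly6D+ and Ly6D- CLPs, and 6.09 and 5.07 in CD127+ and CD127- LMPPs. It was 1.67 higher in CLPs than in CD127- LMPPs without overlap. Of the 9 probe sets, 5 had a higher and 4 a lower mean in that comparison. For the mean over probe sets, the log2 difference between CD127+ and CD127- LMPPs was 0.60 (SE 0.16). Between CLPs and CD127- LMPPs it was 0.50 (SE 0.15), and both were without overlap.

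**Figure D3:**
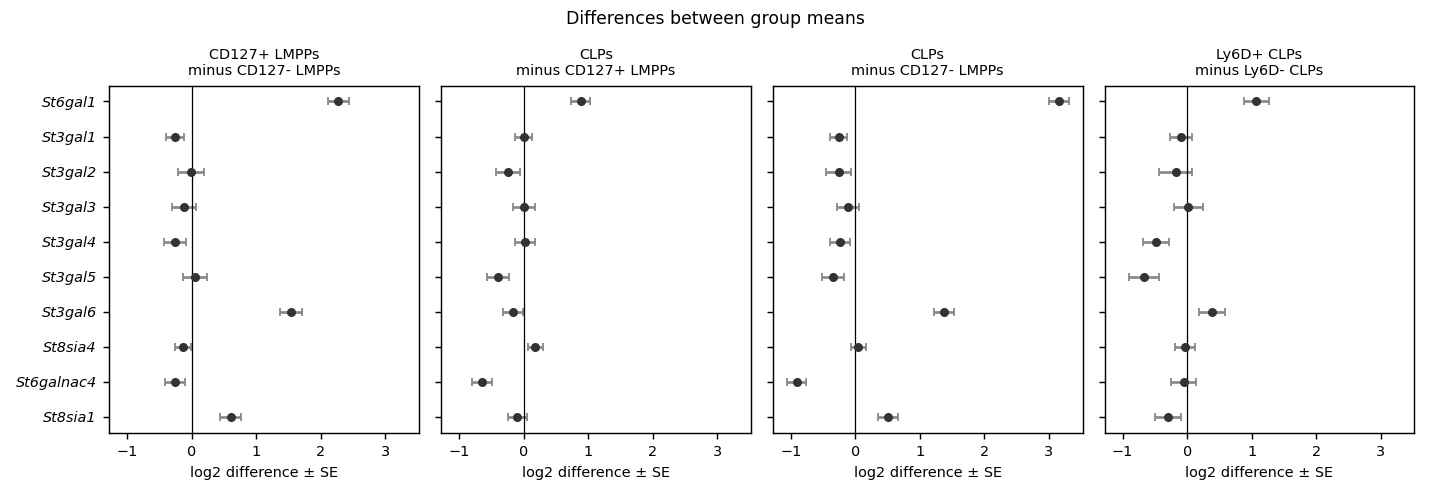
Log2 differences between group means (x axis, bars are SE from the fit over all 10 arrays) of the 10 sialyltransferases (y axis) in the 4 comparisons. St6gal1 lies above 0 in all 4 panels (0.88 to 3.15), St3gal6 in the 2 panels against CD127- LMPPs (1.54 and 1.37) and, less far, between the CLP groups (0.38), and St6galnac4 lies lowest in the 2 panels of CLPs against LMPPs (-0.65 and -0.91).

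In a limma fit over all 23152 genes, with a threshold of 0.05 on the adjusted p, 2 of the 10 members were called in CD127+ against CD127- LMPPs (St6gal1 and St3gal6), where 1.47% of all genes were called. In CLPs against CD127+ LMPPs 2 of 10 were called (St6gal1 and St6galnac4), against 6.18% of all genes. In CLPs against CD127- LMPPs 3 of 10 were called (St6gal1, St3gal6 and St6galnac4), against 13.4% of all genes. In Ly6D+ against Ly6D- CLPs 0 of 10 were called, against 0.0993% of all genes, which is 23 genes, while 2107 genes had an unadjusted p under 0.05. Since the list was made with these values known, nothing is read from these counts. St6gal1 between the CLP groups was called with a filter on dim genes and with trend and robust settings. The call of St6galnac4 in CLPs against CD127+ LMPPs was lost in 11 of 19 alternatives, among them leaving out CD127+ LMPP array 1 or 3 or any of the 4 CLP arrays, with log2 differences from -0.82 to -0.49 over all 19. The median difference of the 10 members was -0.07, -0.05, -0.18 and -0.08 in the same order of comparisons, and that of all genes was -0.0051, -0.00081, 0.02 and -0.0034.

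Other cell types were followed by marker lists. The mean over 9 mature granulocyte genes was 6.69 to 7.49 in CD127+ LMPP arrays and 4.56 to 5.73 in CD127- LMPP arrays, and 6 of the 9 rose. Under the low-signal limit were 1 of the 9 in CD127+ and 4 of the 9 in CD127- LMPPs. The mean over 6 erythroid genes was 5.32 to 5.94 in CD127+ LMPPs and 4.42 to 4.59 in CD127- LMPPs, and 3 of 6 rose. Their part in the St6gal1 and St3gal6 differences between LMPP groups was not tested. The CLPs differed from CD127+ LMPPs too: 7 of 9 granulocyte, 3 of 6 erythroid and 2 of 5 megakaryocyte genes fell, while 2 of 6 macrophage and monocyte genes rose. Of the macrophage and monocyte genes, 4 of 6 fell and 1 rose in CLPs against CD127- LMPPs, where 1 of 6 erythroid genes fell. The part of these genes in the St6gal1, St3gal6 and St6galnac4 differences of those comparisons was not tested. In CLP arrays the granulocyte mean was 4.82 to 5.44 in Ly6D+ and 4.92 to 5.11 in Ly6D- CLPs. The erythroid mean was 4.41 to 4.43 in Ly6D+ and 4.20 to 4.57 in Ly6D- CLPs, and the macrophage and monocyte mean was 6.10 to 6.25 in Ly6D+ and 6.54 to 6.62 in Ly6D- CLPs. The mean over 11 B lineage genes was 6.86 to 6.90 in Ly6D+ CLPs, 5.32 to 5.51 in Ly6D- CLPs, 5.56 to 5.87 in CD127+ LMPPs and 4.49 to 4.63 in CD127- LMPPs. Of these 11, 5 rose in CD127+ against CD127- LMPPs and 3 in Ly6D+ against Ly6D- CLPs. In CLPs 4 rose against CD127+ and 9 against CD127- LMPPs, and 0 fell in any of these comparisons. The part of B lineage genes in the differences of the members was not tested. The mean over 6 macrophage and monocyte genes moved the other way between the LMPP groups, at 6.22 to 6.51 in CD127+ and 7.12 to 7.49 in CD127- LMPPs, with 4 of 6 lower. All 6 T cell receptor complex and coreceptor genes lay under the low-signal limit in all 4 groups. The lists for megakaryocytes, mature B and plasma cells and plasmacytoid dendritic cells had 0, 0 and 1 called members between the LMPP groups by limma, with 2, 0 and 3 at an unadjusted p under 0.05. Of the 5 plasmacytoid dendritic genes, 1 rose and 2 fell in CLPs against CD127+ LMPPs. Against CD127- LMPPs 2 rose and 2 fell, and Siglech was among those that rose in both comparisons.

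The 10 sialyltransferases outside the list passed the threshold in none of the 4 comparisons by limma, with 1, 0, 1 and 2 genes at an unadjusted p under 0.05. The shares of all genes called were 1.47%, 6.18%, 13.4% and 0.0993% in the same order. Of these 10 genes, 5 lay under the low-signal limit in Ly6D- CLPs and 6 in each other group, so no contrast with the members is read from this. In CD127+ against CD127- LMPPs the largest difference was that of St6galnac2 (-0.34, adjusted p = 0.325), an enzyme of O-linked chains. In CLPs against CD127+ LMPPs it was that of St6galnac5 (-0.26, adjusted p = 0.508), and in CLPs against CD127- LMPPs that of St8sia6 (0.36, adjusted p = 0.121). St6galnac5 lay under the low-signal limit in all 4 groups and St8sia6 in all but Ly6D- CLPs, so these 2 differences are between signals near background. In Ly6D+ against Ly6D- CLPs it was that of St6galnac3 (-0.65, adjusted p = 0.391). The other enzyme of St6gal1's linkage, St6gal2, had means from 3.596 to 3.951 in the 4 groups, all under the low-signal limit.

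Of 6 genes that make, activate or carry sialic acid, Cmah rose in CD127+ LMPPs and the other 5 did not pass. Cmah converts the activated sugar Neu5Ac to Neu5Gc, the form that mouse CD22 prefers. Cmah had values of 9.11 and 9.10 in Ly6D+ CLPs, 8.79 and 8.73 in Ly6D- CLPs, 8.28, 8.41 and 8.28 in CD127+ LMPPs, and 6.07, 6.10 and 6.19 in CD127- LMPPs. Its groups stood in the same order as those of St6gal1, with no overlap at any step. The log2 difference was 2.20 in CD127+ against CD127- LMPPs (SE 0.12, 4.61-fold, limma adjusted p = 7.39e-06) and 2.81 in CLPs against CD127- LMPPs (SE 0.11, 7.01-fold, limma adjusted p = 2.15e-07). Both calls held in all 19 alternatives. In CLPs against CD127+ LMPPs Cmah rose by 0.61 (adjusted p = 0.0112), which was lost without CD127+ LMPP array 1 (adjusted p = 0.0506) and with the median or the brightest probe set (adjusted p up to 0.0669). Between the CLP groups it differed by 0.35 and did not pass (adjusted p = 0.509). Nans, the sialic acid synthase, fell by 0.52 in CLPs against CD127+ LMPPs (adjusted p = 0.0433) and by 0.48 against CD127- LMPPs (adjusted p = 0.0346). Each of these calls was lost without any one of 7 of the 10 arrays (adjusted p up to 0.132 and 0.128), and the adjusted p reached 0.374 and 0.189 over all alternatives.

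Of 8 Siglec genes, Cd33 and Siglech rose in CD127+ against CD127- LMPPs. Cd33, a Siglec of myeloid cells, differed by 1.15 (adjusted p = 0.003), a call lost with the brightest probe set (adjusted p = 0.115). Siglech, the Siglec of plasmacytoid dendritic cells, differed by 0.90 (adjusted p = 0.0193), a call lost without CD127- LMPP array 1 or 2 or CD127+ LMPP array 2 or 3 (adjusted p up to 0.094) and with the median or the brightest probe set (adjusted p up to 0.765). Against CD127- LMPPs the CLPs were higher by 2.73 for Siglech (adjusted p = 2.65e-06) and by 1.42 for Cd33 (adjusted p = 0.000129), and against CD127+ LMPPs Siglech was the Siglec that passed (1.82, adjusted p = 0.000285). Between the CLP groups 0 of 8 passed by limma, 1 at an unadjusted p under 0.05, and Siglech differed by 1.21 (adjusted p = 0.0574). Cd22, the receptor for the cap that St6gal1 makes, averaged 4.61 ± 0.19 in Ly6D+ CLPs and 4.24 ± 0.093 in Ly6D- CLPs (SD, n = 2 each), and 3.87 ± 0.26 in CD127+ LMPPs and 4.10 ± 0.34 in CD127- LMPPs (SD, n = 3 each), under the low-signal limit in all but Ly6D+ CLPs.

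St6gal1 needs a galactose to cap, and 14 genes of N-glycan branching and galactosylation were followed. B4galt4, a galactosyltransferase, fell by 1.17 in CD127+ against CD127- LMPPs (adjusted p = 0.00275) and was the 1 of 14 that passed, though not with the brightest probe set (adjusted p = 0.0839). In CLPs against CD127- LMPPs 2 rose and 3 fell. B4galt1, the main galactosyltransferase of N-glycans, rose by 0.99 (adjusted p = 0.00177) and the branching enzyme gene Mgat4a by 0.91 (adjusted p = 0.000863), while B4galt4 fell by 1.18 (adjusted p = 0.000431) and Mgat2 by 0.55 (adjusted p = 0.0148). The Mgat2 call was lost without CD127- LMPP array 1 (adjusted p = 0.072), with the median or the brightest probe set and with the replicate block (adjusted p up to 0.239). In CLPs against CD127+ LMPPs Mgat2 fell by 0.52 (adjusted p = 0.034), a call lost without any one of 8 of the 10 arrays (adjusted p up to 0.119), and its adjusted p reached 0.248 over all alternatives. Between the CLP groups 0 of 14 passed by limma, with 0 at an unadjusted p under 0.05, and B4galt1 had the largest difference (0.43, adjusted p = 0.559).

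Of 10 genes for O-glycan cores, Gcnt2, which branches lactosamine chains, fell in CLPs by 0.97 against CD127+ LMPPs (adjusted p = 0.00549) and by 0.98 against CD127- LMPPs (adjusted p = 0.00199), although some arrays overlapped in the second of these. Both calls were lost with the brightest probe set (adjusted p = 0.069 and 0.0684). In Ly6D+ against Ly6D- CLPs Gcnt2 fell by 1.32 (adjusted p = 0.0461), and this call was lost without any one of 8 of the 10 arrays (adjusted p up to 0.291) and in 14 of 19 alternatives in all (adjusted p up to 0.320). C1galt1c1, the chaperone of core synthesis, fell by 0.59 (adjusted p = 0.01) and Gcnt1 by 0.50 (adjusted p = 0.0282) in CLPs against CD127- LMPPs. The first was lost without CD127- LMPP array 1 (adjusted p = 0.0527), and the second without any one of 6 arrays (adjusted p up to 0.0927). With the brightest probe set both were lost, and the adjusted p reached 0.206 for C1galt1c1 and 0.342 for Gcnt1 over all alternatives. Between the LMPP groups 0 of 10 passed by limma, with 1 at an unadjusted p under 0.05, and C1galt1c1 had the largest difference (-0.45, adjusted p = 0.186).

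Of 6 glycolipid genes, B4galt5, which makes lactosylceramide, the acceptor of St3gal5, rose in CLPs by 0.75 against CD127+ LMPPs (adjusted p = 0.00854) and by 0.94 against CD127- LMPPs (adjusted p = 0.000969), and both calls were lost with the brightest probe set (adjusted p = 0.247 and 0.0614). B3galt4 fell by 0.83 in CLPs against CD127+ LMPPs (adjusted p = 0.0153), a call lost without CD127+ LMPP array 1 or 3 or Ly6D+ CLP array 1 (adjusted p up to 0.068) and with the median or the brightest probe set (adjusted p up to 0.806). B4galnt1, a ganglioside synthase, fell by 0.76 in CLPs against CD127- LMPPs (adjusted p = 0.00621), a call lost with the median of probe sets (adjusted p = 0.0554). It had the largest difference between the LMPP groups (-0.49, adjusted p = 0.223), where 0 of 6 passed by limma and 1 had an unadjusted p under 0.05. B4galt5 had the largest between the CLP groups (0.54, adjusted p = 0.363), also with 0 passing and 1 at an unadjusted p under 0.05.

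Of 6 genes for fucose and selectin ligands, Fut7, which completes selectin ligands, fell by 0.84 in CLPs against CD127- LMPPs (adjusted p = 0.0139), a call lost without CD127- LMPP array 2 (adjusted p = 0.059). Fut7 had the largest difference of that list in the other 3 comparisons too (-0.34, -0.50 and -0.41), with 0 of 6 passing by limma and 0, 1 and 0 at an unadjusted p under 0.05. Bace1, a protease that can release St6gal1 from the Golgi, fell by 0.55 in CLPs against CD127- LMPPs (adjusted p = 0.0199), a call lost without CD127- LMPP array 1 or 2, Ly6D- CLP array 1 or Ly6D+ CLP array 2 (adjusted p up to 0.0735) and with the median or the brightest probe set (adjusted p up to 0.483). Between the LMPP groups Bace1 differed by -0.55 (adjusted p = 0.113). Of the 5 genes in the list of Bace1 and polysialic acid carriers, 0 passed by limma in the other 3 comparisons, with 1 at an unadjusted p under 0.05 in each. Their largest differences included Ncam1 at 0.32 in CLPs against CD127+ LMPPs (adjusted p = 0.21) and Cadm1 at -0.52 in Ly6D+ against Ly6D- CLPs (adjusted p = 0.367), both of which lay under the low-signal limit in all 4 groups. Of 7 sialidase and esterase genes, Ctsa, which protects the sialidase Neu1, fell by 0.84 in CLPs against CD127- LMPPs (adjusted p = 0.00242), a call lost with the brightest probe set (adjusted p = 0.354), and differed by -0.37 between the LMPP groups (adjusted p = 0.363) and by -0.47 in CLPs against CD127+ LMPPs (adjusted p = 0.0673). Neu4 had the largest difference of the list between the CLP groups (0.42, adjusted p = 0.46). In each of these 3 comparisons 0 of 7 passed by limma and 1 had an unadjusted p under 0.05.

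**Figure D4:**
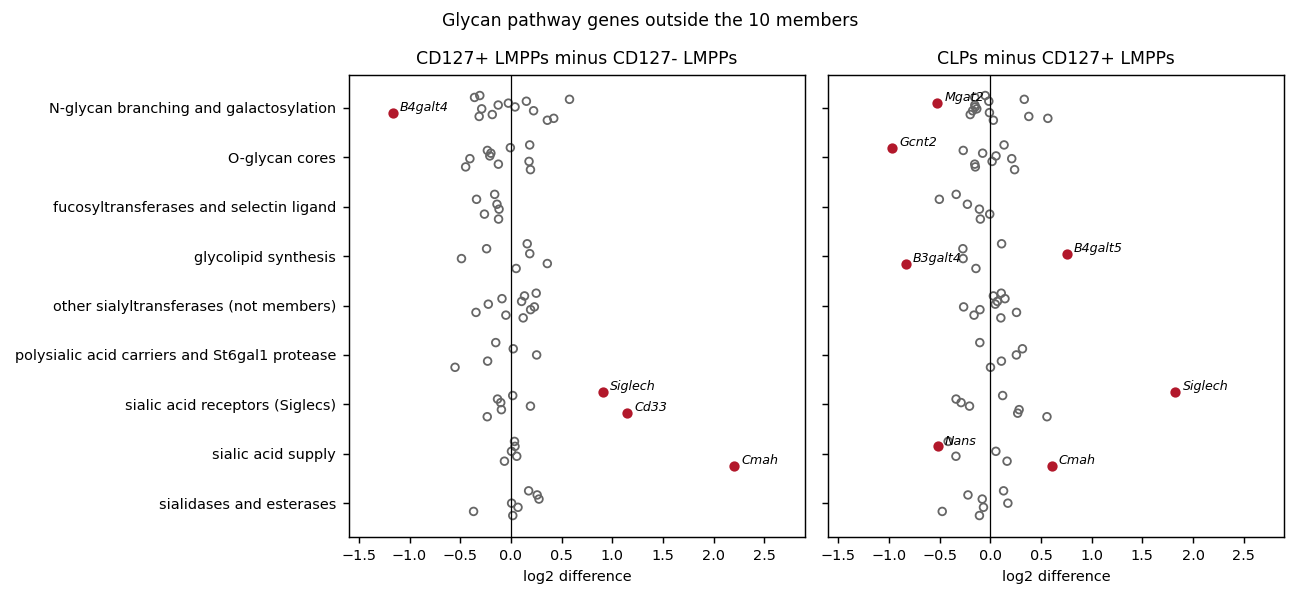
Log2 differences (x axis) of glycan pathway genes outside the 10 members, by list (y axis), in CD127+ minus CD127- LMPPs and in CLPs minus CD127+ LMPPs; filled red points with names passed an adjusted p of 0.05 and open points did not. Cmah (2.20) lies farthest to the right among the LMPP differences, and none of the 10 other sialyltransferases is filled.

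The genes whose profile over the 10 arrays was most like that of St6gal1 were sought among 10040 genes with at least 3 probe sets and a mean above the low-signal limit, leaving out predicted, small RNA and antigen receptor segment genes and the members. Likeness is the root mean square difference after each gene is centred on its own mean. The nearest was Blnk, an adaptor of B cell receptor signalling and a gene of the B lineage list, at 0.22 log2. Then came Cmah at 0.31, the interleukin 18 receptor gene Il18r1 at 0.35, the guanylate-binding protein gene Gbp9 at 0.37 and the receptor gene Gpr25 at 0.38. Their Pearson r with St6gal1 over the same 10 arrays ran from 0.9621 to 0.9908. These values describe arrays that fall into 4 groups, and the genes were picked for them, so no test is given. Blnk averaged 9.84 in Ly6D+ CLPs, 8.92 in Ly6D- CLPs, 8.31 in CD127+ LMPPs and 5.92 in CD127- LMPPs. Cmah thus stood second of 10040 genes in likeness and is also a gene of the sialic acid supply list. Among the other members St3gal6 came nearest to St6gal1 at 0.79, followed by St8sia1 at 1.21, and St6galnac4 was farthest at 1.73.

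**Figure D5:**
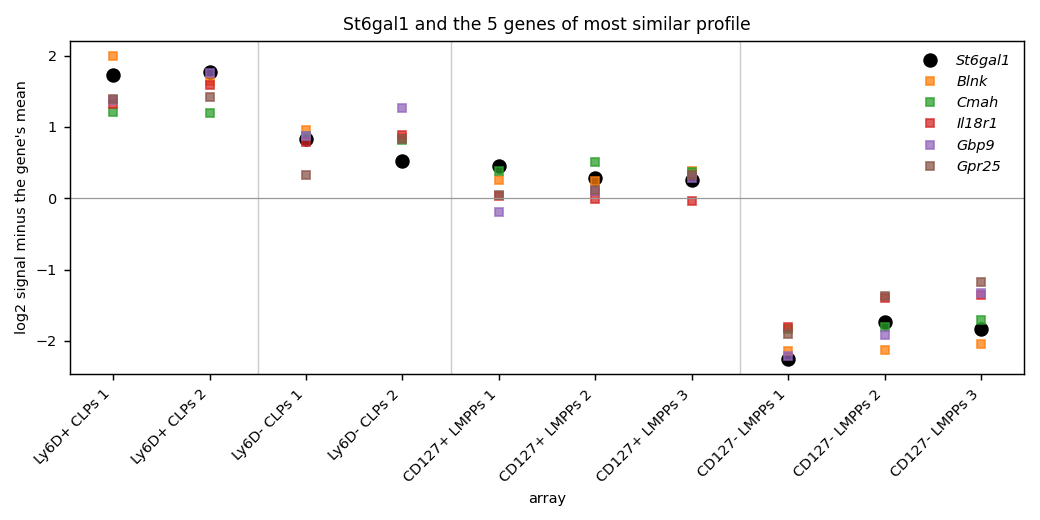
Log2 signal minus the gene's own mean (y axis) of St6gal1 (black circles) and the 5 genes of most similar profile (squares) on each of the 10 arrays (x axis, by group). All 6 genes are lowest on the 3 CD127- LMPP arrays, and Blnk lies closest to St6gal1, with a root mean square difference of 0.22.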

How the data were processed

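The authors deposited 1 table with a value per probe set and array (269751 by 10), which was read as log2 signal from its range (0.204 to 14.8). Affymetrix Power Tools is the tool listed in the submitters' processing notes. Log base, summary method, normalization and genome build: not given in the sources used here, so the scale of every difference rests on the log2 reading. Array quartiles differed by 0.125 at most and were left as they were. Precision is limited by the few arrays.

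A gene's value is the mean of its probe sets with 1 symbol (233753, giving 23152 genes). Probe sets with several symbols (5106) or none (30892) were left out. Group means were fitted to all 10 arrays with limma 3.58.1 (R 4.3.3), moderated by empirical Bayes, with Benjamini-Hochberg adjustment across genes and a threshold of 0.05. The fit was tested on simulated data. Figures were drawn with Python 3.11.15 and matplotlib 3.10.9.

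The members, lists and naming rule were chosen with earlier results of these data known. Outside the members, a list is named by at most 4 genes past the threshold with the largest differences, or else by its largest difference, and the likeness rule names 5 genes. Alternatives comprised 9 changes of scaling, probe set summary, filter or fit, among them a replicate block, and the omission of each array. Sequences came from RefSeq windows (GRCm38.p6).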

Additional observations from a re-analysis of the deposited data

How the results depend on the processing

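With each of the 10 arrays left out in turn, all calls of St6gal1 and St3gal6 held. Since the members were picked with values of these arrays known, this lends those calls no support. The members called in these fits numbered 2 to 2 in CD127+ against CD127- LMPPs and 1 to 2 in CLPs against CD127+ LMPPs. In CLPs against CD127- LMPPs they numbered 3 to 4, and in Ly6D+ against Ly6D- CLPs 0 to 0. The genes called over the whole table then numbered 165 to 340, 586 to 1327, 1763 to 2952 and 6 to 27, against 341, 1430, 3111 and 23 with all arrays. Among the other 9 alternatives, the median of probe sets called 160, 641, 1822 and 11 genes in the same order, and the brightest probe set called 88 genes between the LMPP groups and 11 between the CLP groups. A filter on dim genes called 520, 2453 and 62 genes in CD127+ against CD127- LMPPs, CLPs against CD127+ LMPPs and Ly6D+ against Ly6D- CLPs, and trend and robust settings called 581, 2415 and 78. The compared arrays alone called 872 genes in CLPs against CD127+ LMPPs and 1 between the CLP groups, and array weights called 13 between the CLP groups. Quantile normalization changed no member call. Of the members, CLPs against CD127+ LMPPs kept 1 call with median centring, the median of probe sets, the compared arrays alone or the replicate block, and 0 with the brightest probe set. Ly6D+ against Ly6D- CLPs gained 1 call, St6gal1, with the filter and with trend and robust settings. CLPs against CD127- LMPPs gained St8sia1 with the brightest probe set, with array weights, without CD127- LMPP array 3 and without Ly6D- CLP array 1.

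Deviations from group means of same-numbered arrays correlated at -0.043 to 0.127 (median 0.016, 13 pairs). Those of arrays with different numbers correlated at -0.136 to 0.136 (median -0.012, 24 pairs). Of 10 arrays, 4 lay closest to one of their own number. In a group of 2 arrays the deviations mirror each other, so these values cannot exclude pairing by number. With the replicate block 755 genes were called in CLPs against CD127+ LMPPs and 8 between the CLP groups.

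St6gal1 differences ran from 1.74 to 3.89 between the LMPP groups, 0.81 to 1.38 and 3.00 to 4.95 in CLPs against CD127+ and CD127- LMPPs, and 0.92 to 1.63 between the CLP groups over 19 alternatives. With the brightest probe set 6 differences of named genes outside the members, none of which had passed, turned sign: Cadm1 (0.12), Neu4 (-0.060) and St6galnac3 (0.24) between the CLP groups, Ctsa (0.45) in CLPs against CD127+ LMPPs, St6galnac2 (0.44) between the LMPP groups and St8sia6 (-0.39) in CLPs against CD127- LMPPs. Among the members it turned the sign of some uncalled differences, such as those of St3gal4 (0.14) between the CLP groups and St3gal6 (0.14) in CLPs against CD127+ LMPPs. The cause of these changes was not tested. Of 28 named calls outside the members, 8 held in all 19 alternatives and 16 with each array left out. With 2 or 3 arrays a group, small differences of the ST3 genes could not be told from the spread.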

Other observations

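A probe set shared by St6gal1 and BC106179, left out of the gene values, had means of 5.56 in Ly6D+ CLPs, 5.30 in Ly6D- CLPs, 4.23 in CD127+ LMPPs and 3.37 in CD127- LMPPs, which is the group order of St6gal1. The 2 probe sets shared by St8sia1 and Gm7457 had means of 3.01 and 4.46 in Ly6D+ CLPs, 2.59 and 5.27 in Ly6D- CLPs, 2.16 and 4.73 in CD127+ LMPPs and 2.30 and 3.76 in CD127- LMPPs. The 12 probe sets of St3gal1 hold 1 with a difference of -2.54 between Ly6D+ and Ly6D- CLPs, while the median over the 12 was -0.03.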
